A study of Mus musculus with 14 samples.

Results

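The genes followed here form 3 arms of the cellular stress response: the endoplasmic reticulum (ER) stress arm, the integrated stress arm that runs through ATF4, and the heat shock arm. They were chosen by symbol, 22 for the ER arm, 10 for the ATF4 arm and 9 for the heat shock arm, with earlier results of these data known. Of the 41 genes, 40 were among the 13866 genes of the count table (Ern1 was not listed) and 37 were among the 11852 genes with enough counts to be tested. Manf, with 0 to 6 counts per library, Trib3, with 1 to 13, and Sesn2, with 0 to 16, were too low.

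The study asked which expression changes of a chemically induced neuronopathic Gaucher disease persist when interferon signaling is disabled. Mice received daily intraperitoneal conduritol B-epoxide (CBE), an inhibitor of acid beta-glucosidase, at 100 mg/kg, or phosphate buffered saline (PBS), and brain RNA was sequenced at 19 days of age, with 1 library per mouse. The WT mice were C57BL/6JOlaHsd, as WT + PBS (3 mice) and WT + CBE (3 mice). The MyTrMaSt null mice, as MyTrMaSt + PBS (3 mice) and MyTrMaSt + CBE (5 mice), all lacked Myd88, Trif (listed as Ticam1), Mavs and Tmem173, the adaptors of the main pathogen recognition receptors, in every cell of the body. The model is therefore a chemical block of the enzyme throughout the body and not a mutation of its gene, and the WT mice came from a commercial supplier.

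When misfolded proteins collect in the ER, the chaperone BiP lets go of the sensors IRE1, PERK and ATF6, which then raise the output of ER chaperones, folding enzymes and the machinery that sends misfolded proteins to the proteasome. PERK and related kinases also phosphorylate eIF2alpha, which slows translation in general but favours that of ATF4, a transcription factor for amino acid synthesis, redox and cell death genes. Heat shock factors direct the like response for the cytosol, where HSP70, HSP90, HSP40 and small heat shock proteins hold and refold damaged proteins, and in the brain the small heat shock proteins are known as products of reactive astrocytes.

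The promoters of these genes were searched for the known element of each arm. RefSeq windows (build GRCm38.p6, the mm10 assembly) of 250 bases before to 50 after each start were found for 35 of the 41 genes. The ER stress element was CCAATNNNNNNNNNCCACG on either strand. It was present in 8 of the 35, all of them ER genes (Calr, Canx, Creld2, Dnajc3, Hsp90b1, Hspa5, Pdia6, Syvn1). Of all 27025 genes with a window, 0.137% held it. The ATF4 element TGATGNAA was in the windows of Asns, Chac1 and Trib3 of the ATF4 arm and of Herpud1, against 4.51% of all genes. A pair of inverted heat shock units (GAANNTTC or TTCNNGAA) was in 4 of the 6 heat shock genes with a window (Hspa1a, Hspa1b, Hspb1 and Hsph1) and also in Asns and Eif2ak3. A triple, in which GAA and TTC alternate with NN between them, was in Hsph1 alone of the members and in 0.662% of all genes. In Hsph1 it read TTCTGGAAAGTTC, after the start (chr5:149636288-149636300, minus strand). The pair is common, at 17% of all genes, and in Asns it overlaps the ATF4 element. The following stretches all lie before a RefSeq start. Those of Hspa5, Asns and Hsph1 nevertheless have their element inside the GENCODE bounds of the gene. The stretches are shown because they carry the element of an arm in genes whose response to CBE is described next. Matching letters are in capitals, and all sequences are written 5′ to 3′ in the direction of the gene.
Hspa5 (chr2:34772010-34772058, plus strand): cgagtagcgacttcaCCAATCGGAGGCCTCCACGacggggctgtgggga
Calr (chr8:84847060-84847108, minus strand): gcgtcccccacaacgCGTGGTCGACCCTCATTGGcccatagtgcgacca
Pdia6 (chr12:17266476-17266524, plus strand): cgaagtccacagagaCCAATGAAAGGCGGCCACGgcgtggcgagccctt
Chac1 (chr2:119351034-119351071, plus strand): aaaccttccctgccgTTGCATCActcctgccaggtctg
Asns (chr6:7693210-7693247, minus strand): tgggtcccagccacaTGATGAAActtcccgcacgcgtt
Hspb1 (chr5:135887787-135887844, plus strand): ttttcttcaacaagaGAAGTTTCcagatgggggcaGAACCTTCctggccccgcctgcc
Hsph1 (chr5:149636347-149636384, minus strand): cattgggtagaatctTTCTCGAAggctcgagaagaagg
Hspa1a (chr17:34972238-34972275, minus strand): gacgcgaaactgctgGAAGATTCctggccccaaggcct
The last stretch was identical in Hspa1b, the neighbouring copy of Hspa1a, whose near-identical transcripts can be split or dropped when only uniquely mapping reads are counted, so the values of both genes are uncertain. Of the 8 genes, Hspa5, Calr, Pdia6, Chac1, Asns and Hspa1a did not pass the test under CBE in either genotype, and Hspb1 and Hsph1, which both hold the pair, moved in opposite directions in WT. Edem1, the ER gene with the clearest rise, had a window without the ER stress element, and Hspa4 had a window without a heat shock pair. A match describes letters in these windows and says nothing of what binds there.

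Libraries held 1290616 to 3704691 counts. WT + PBS replicate 1 was the shallowest and stood apart from the other WT + PBS libraries. Its chi-square per degree of freedom was 22.3 and 20.3, against 3.73 between the other 2 libraries. MyTrMaSt + CBE replicate 4 also stood apart over all genes with enough counts, at 5.55 to 7.84. The other pairs of its group were at 2.80 to 4.68. It stood apart for several of the genes below as well. Myd88 was lower in MyTrMaSt, at 3.11 to 4.49 and 3.91 to 10.8 normalised counts (CPM, scaled to library size) under PBS and CBE against 9.95 to 17.1 and 20.7 to 27.2 in WT. The other 3 deleted genes overlapped between the genotypes or, for Tmem173, did not go down. Tmem173 was higher in every MyTrMaSt + PBS library than in WT + PBS (log2 fold change 1.62, not called). Whether the counted 3' ends lie in the deleted parts is not given in the sources used here. Xist, expressed from the inactive X chromosome of females, was at 0 counts in all 3 WT + PBS libraries and in MyTrMaSt + CBE replicate 4, at 1 in WT + CBE replicate 2 and at 18 to 47 in the other 9, so among WT mice treatment and Xist level were largely confounded.

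Under CBE 5 of the 37 tested stress genes were called in WT and 2 in MyTrMaSt. Calls below are edgeR quasi-likelihood tests across all 11852 genes with an adjusted p below 0.05. In WT, 2 of the 37 rose, Edem1 and Hspb1, where 6.7% of all tested genes were called higher, and 3 fell, Hspa4, Hsph1 and Hspa8, where 3.89% of all tested genes were called lower. In MyTrMaSt only Hspb1 rose (background 5.32%) and only Hspa4 fell (background 2.44%). At an unadjusted p below 0.05 the counts were 8 of 37 in WT (24.7% of all tested genes) and 10 of 37 in MyTrMaSt (23.7%). These counts were near the shares over all genes, and the calls are read here gene by gene. By arm, the calls in WT were 4 of 9 heat shock genes, 1 of 20 ER genes and 0 of 8 ATF4 genes. Of all tested genes 10.6% were called in WT in either direction. In MyTrMaSt the calls by arm were 2 of 9, 0 of 20 and 0 of 8. With Xist as a covariate only Hspb1 of the heat shock genes stayed called in WT. DESeq2 called 5 members in WT, the same genes, and 3 in MyTrMaSt, adding Edem1.

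The fold changes were also summarised by arm. The median log2 fold change of the ER arm was 0.035 in WT and -0.023 in MyTrMaSt, close to the medians of all tested genes (-0.018 and 0.0052). In each genotype the 95% confidence interval of 19 of the 20 ER genes lay within a 2-fold change in either direction. The ATF4 arm had medians of 0.024 in WT and 0.44 in MyTrMaSt, with 8 and 5 of its 8 intervals inside 2-fold. Its median for MyTrMaSt over WT was -0.28 between the PBS groups and 0.054 between the CBE groups. The heat shock arm had a median of -0.33 in WT, where 8 of 9 genes had a negative fold change, and 0.0076 in MyTrMaSt, where 4 of 9 did. The MyTrMaSt value turned negative under several alternatives, to -0.24 without MyTrMaSt + CBE replicate 4 and -0.23 with the replicate number as a block. These medians are descriptions of the lists and no test compares them. All values are from bulk brain, where fewer cells of a type and less RNA per cell cannot be told apart.

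**Figure D1:**
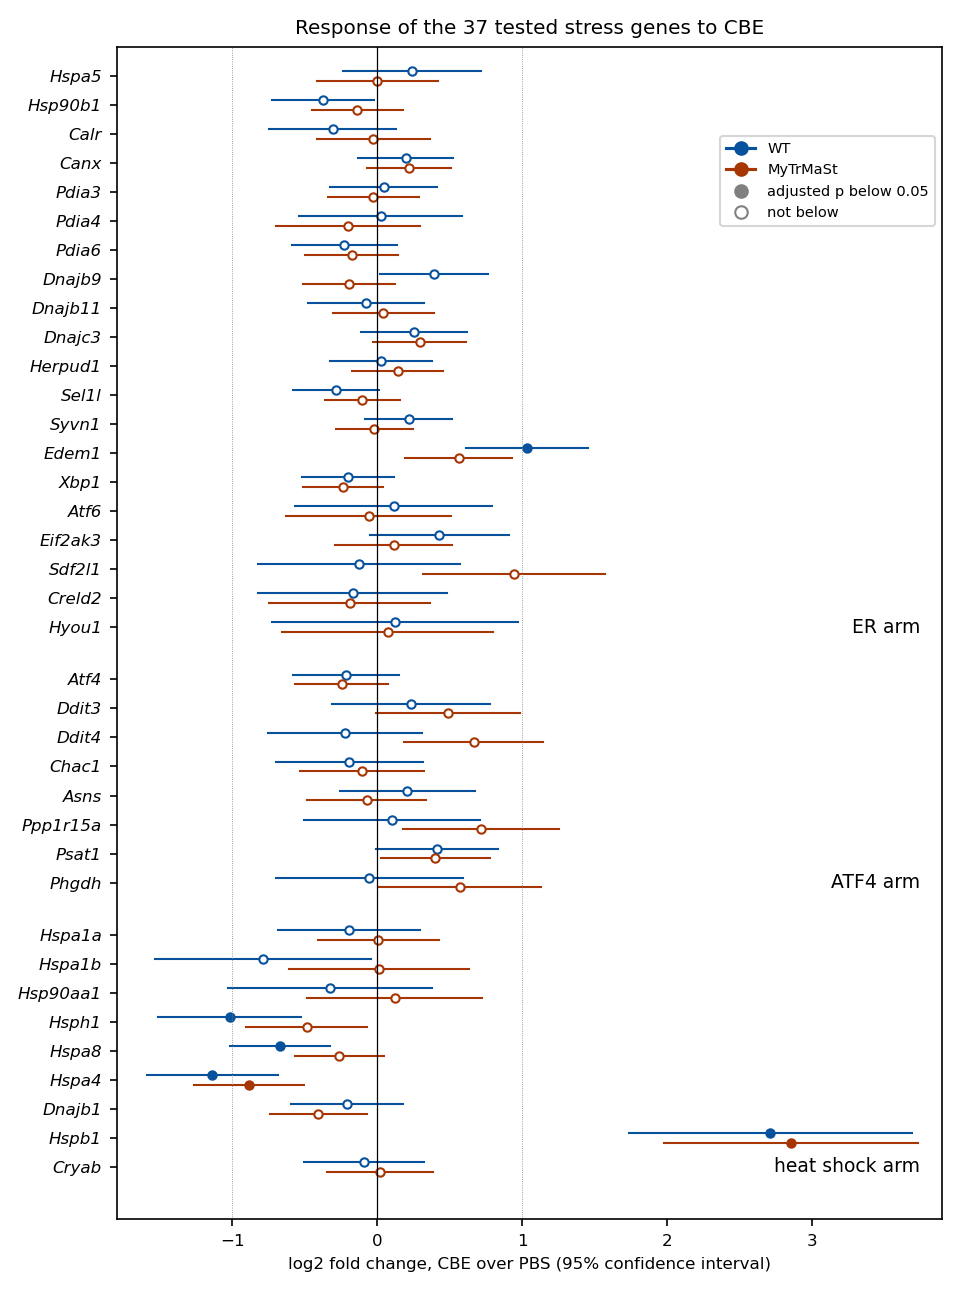
Log2 fold change of CBE over PBS (x axis) for each of the 37 tested genes (y axis) in WT (blue) and MyTrMaSt (brown), with 95% confidence intervals; filled circles mark an adjusted p below 0.05 and dotted lines a 2-fold change. Most ER and ATF4 genes straddle 0, Edem1 and Hspb1 lie to the right, and Hspa4, Hsph1 and Hspa8 lie to the left.

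The ER chaperones did not pass the test in either genotype. Hspa5, which encodes the chaperone BiP and is the usual readout of ER stress, was at 93.9, 201 and 173 CPM under PBS and 208, 176 and 175 under CBE in WT. The low value belongs to WT + PBS replicate 1, and of the other WT + PBS libraries replicate 2 lay within the WT + CBE range and replicate 3 just below it (log2 fold change 0.24, SE 0.23, edgeR adjusted p = 0.572, and 0.0093 without that library). In MyTrMaSt it was at 194, 184 and 205 CPM under PBS and 188, 155, 182, 267 and 182 under CBE, with replicate 4 high and the other CBE libraries within or below the PBS range (log2 fold change 0.0014, SE 0.20, edgeR adjusted p = 0.999). The 95% interval of its log2 fold change ran from -0.24 to 0.71 in WT and from -0.42 to 0.42 in MyTrMaSt.

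Hsp90b1, the ER member of the HSP90 family (GRP94), was at 255, 186 and 218 CPM under PBS and 182, 169 and 154 under CBE in WT, so that every CBE library lay below every PBS library (log2 fold change -0.37, SE 0.17, edgeR adjusted p = 0.178). Groups without overlap were common, at 27.9% of all tested genes in WT and 22.5% in MyTrMaSt. Of the 37 members the CBE libraries lay all above the controls for 5 and all below for 9 in WT, and for 6 and 3 in MyTrMaSt. The exons of Hsp90b1 share 415 bases with a gene on the opposite strand, 1810014B01Rik, and the use of strand in counting is not stated. In MyTrMaSt its groups overlapped, at 178 to 218 CPM under PBS and 144 to 225 under CBE (log2 fold change -0.14). Calr and Canx, the lectin chaperones calreticulin and calnexin that hold newly glycosylated proteins, had log2 fold changes of -0.31 and 0.20 in WT and -0.027 and 0.22 in MyTrMaSt. The disulfide isomerases Pdia3, Pdia4 and Pdia6 lay between -0.23 and 0.046 in WT and between -0.20 and -0.029 in MyTrMaSt, and Hyou1, the large ER HSP70, at 0.12 and 0.074. None of these 7 genes had an edgeR adjusted p below 0.178 under CBE.

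The ER co-chaperones, which hand substrates to BiP, did not pass the test. Dnajb11 had log2 fold changes of -0.080 in WT and 0.042 in MyTrMaSt. Dnajc3 was at 43.0 to 47.8 CPM under PBS and 50.6 to 58.5 under CBE in WT, without overlap (log2 fold change 0.25, edgeR adjusted p = 0.403), and changed by 0.29 in MyTrMaSt. Dnajb9 was at 43.3, 61.1 and 63.3 CPM under PBS and 64.0, 73.2 and 87.4 under CBE in WT, and at 79.1, 89.3 and 104 under PBS and 79.1, 83.0, 80.2, 84.2 and 69.3 under CBE in MyTrMaSt. The 3 WT + PBS libraries had the lowest values of all, below every WT + CBE library. The response to CBE did not pass the test in WT (log2 fold change 0.39, SE 0.18, edgeR adjusted p = 0.184) or in MyTrMaSt (log2 fold change -0.20, SE 0.15, edgeR adjusted p = 0.466). Between the PBS groups Dnajb9 was higher in MyTrMaSt by a log2 fold change of 0.67 (edgeR adjusted p = 0.114), and its genotype by treatment interaction was -0.59 (edgeR adjusted p = 0.332).

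Edem1 was the ER gene that rose. It encodes a mannosidase-like protein that draws misfolded glycoproteins out of the folding cycle toward degradation, and lies at chr6:108828641-108859356 (GRCm38, plus strand) with no exon shared with another gene. Its level was 19.9, 19.9 and 23.6 CPM under PBS and 37.2, 43.2 and 51.2 under CBE in WT, with no overlap (2.05-fold, log2 fold change 1.04, SE 0.20, edgeR adjusted p = 0.00190). In MyTrMaSt + PBS it was 18.0, 22.7 and 24.7 CPM and in MyTrMaSt + CBE 38.6, 30.0, 28.4, 34.0 and 30.1. These groups did not overlap either, and the test gave a log2 fold change of 0.56 (SE 0.17, edgeR adjusted p = 0.0570). The difference of the 2 responses was -0.47 (95% interval -1.03 to 0.081, edgeR adjusted p = 0.467), so a difference between the genotypes in this response was not detectable. Fitted with the MyTrMaSt libraries alone, where the spread is not shared with WT, or with DESeq2, Edem1 passed the test in MyTrMaSt too.

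The partners of Edem1 in ER-associated degradation did not pass the test. Sel1l and Syvn1, the adaptor and the ubiquitin ligase of the membrane complex that exports misfolded proteins, had log2 fold changes of -0.28 and 0.22 in WT and -0.10 and -0.019 in MyTrMaSt. Herpud1, which assembles that complex and is a sensitive target of ER stress, was at 0.025 and 0.14. Sdf2l1 and Creld2 are small ER proteins induced by ER stress. Sdf2l1 was at 7.22, 7.74 and 9.70 CPM under PBS and 6.98, 10.8 and 4.82 under CBE in WT, fully overlapping. It was at 4.83, 4.23 and 4.93 in MyTrMaSt + PBS and 7.79, 11.6, 5.67, 11.8 and 8.22 in MyTrMaSt + CBE, where every CBE library was above every PBS library (log2 fold change 0.95, SE 0.30, edgeR adjusted p = 0.0606). Creld2 had log2 fold changes of -0.17 and -0.19.

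Of the sensors and their transcription factors, Eif2ak3, Atf6 and Xbp1 were tested and did not pass, and Ern1 (IRE1) was not analysed here. Xbp1, whose mRNA is spliced by IRE1 and whose protein drives many ER genes, was at 208, 233 and 229 CPM under PBS and 198, 199 and 187 under CBE in WT. All WT + CBE libraries lay below all WT + PBS libraries, by a margin that did not pass the test (log2 fold change -0.20, SE 0.15, edgeR adjusted p = 0.453). In MyTrMaSt it was at 227 to 284 and 187 to 264 CPM (log2 fold change -0.24, SE 0.13, edgeR adjusted p = 0.290). Counts per gene do not separate the spliced from the unspliced form. Eif2ak3 (PERK) had log2 fold changes of 0.43 in WT and 0.11 in MyTrMaSt, and Atf6 of 0.11 and -0.058. For both, WT + PBS replicate 1 was far below the other libraries, at 12.6 CPM against 23.8 and 22.8 for Eif2ak3 and 9.93 against 40.6 and 36.3 for Atf6.

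Beyond the members, a list of 33 other ER genes (27 tested) held 2 calls in each genotype, all higher (background 6.7% in WT and 5.32% in MyTrMaSt). In WT 2 rose, Vimp (selenoprotein S, log2 fold change 0.56, edgeR adjusted p = 0.0239) and Serp1 (0.53, edgeR adjusted p = 0.0234), and in MyTrMaSt 2 rose, the degradation lectin Os9 (1.02, edgeR adjusted p = 0.0391) and the Edem1 paralog Edem2 (0.78, edgeR adjusted p = 0.0472). None fell in either genotype. Positive fold changes numbered 21 of 27 in WT (median 0.16) and 18 of 27 in MyTrMaSt (median 0.084). For these 4 genes the other genotype had log2 fold changes of the same sign, from 0.084 for Serp1 in MyTrMaSt to 0.40 for Edem2 in WT. Each of the 4 calls was lost when single libraries were left out: Vimp without WT + PBS replicate 3 or WT + CBE replicate 2 or 3, Serp1 without any of 5 WT libraries (all but WT + PBS replicate 1), and Os9 and Edem2 without most of the MyTrMaSt libraries or any WT + CBE library, with edgeR adjusted p up to 0.0996, 0.0999, 0.153 and 0.254. With Xist as a covariate Vimp (log2 fold change 0.45), Serp1 (0.63) and Os9 (1.06) kept their sign but also missed the threshold.

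**Figure D2:**
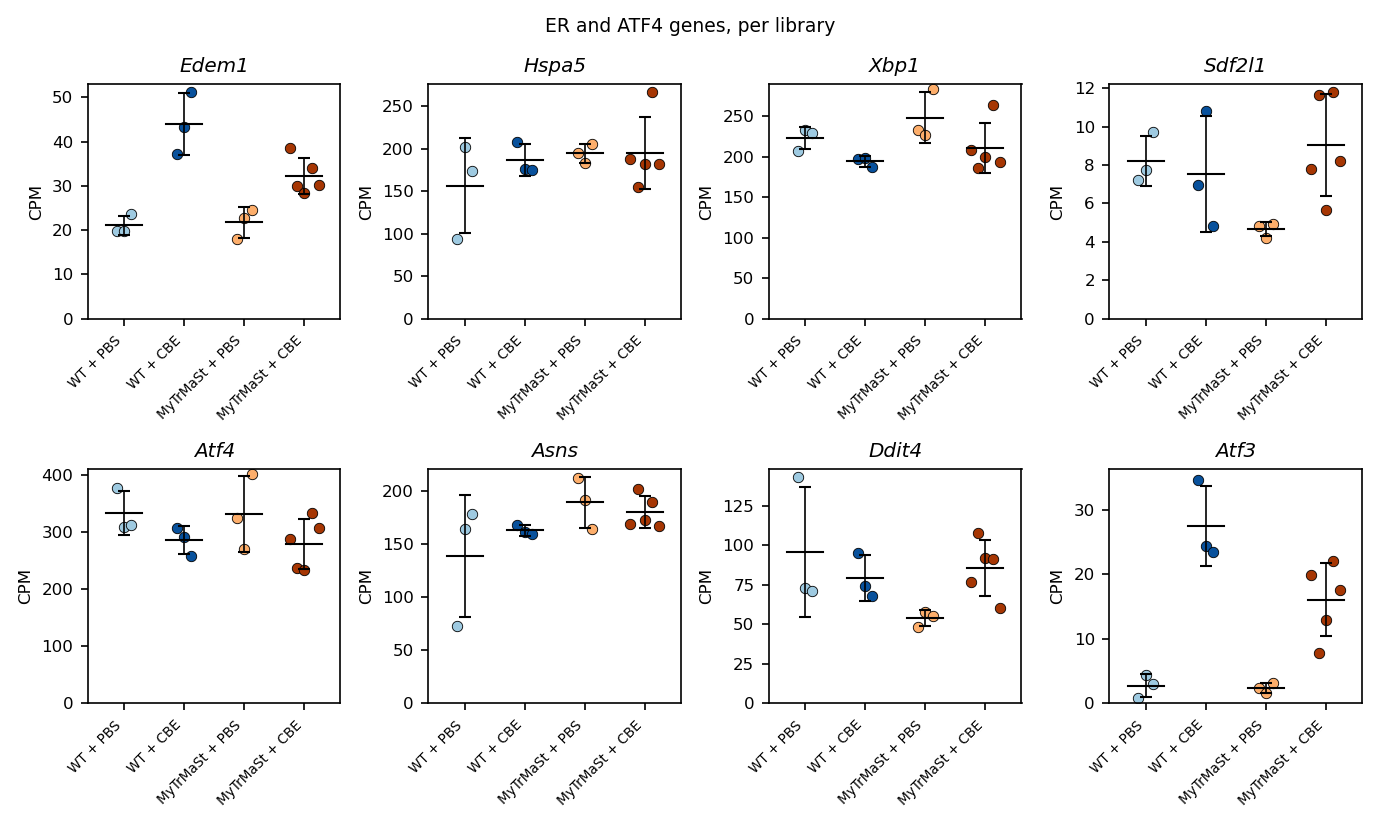
Normalised counts (CPM, y axis from 0) of 4 ER genes (upper row) and 4 genes of the ATF4 arm or its wider pathway (lower row) in each library (points) of the 4 groups, with the mean and SD of each group (lines). Edem1 and Atf3 are higher under CBE in both genotypes, while Hspa5, Xbp1, Atf4 and Asns overlap or change little.

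In the ATF4 arm none of the 8 tested genes was called in either genotype by edgeR or DESeq2, while limma with sample weights called Ddit3 in WT and Ddit4, Psat1 and Phgdh in MyTrMaSt. Atf4 itself was at 378, 309.7 and 312 CPM under PBS and 307, 292 and 259 under CBE in WT (log2 fold change -0.22, SE 0.17, edgeR adjusted p = 0.493), and at 271 to 402 and 234 to 334 in MyTrMaSt (log2 fold change -0.25, SE 0.15, edgeR adjusted p = 0.352). ATF4 is controlled mainly through translation, so its transcript is a limited readout. Its amino acid target Asns, asparagine synthetase, was at 73.1, 164 and 178 CPM under PBS and 168, 161 and 159 under CBE in WT. The CBE libraries lay above WT + PBS replicate 1 and close to the other controls (log2 fold change 0.21, and -0.056 without replicate 1). In MyTrMaSt Asns changed by -0.073, with a 95% interval of -0.48 to 0.34. Chac1, a glutathione-degrading enzyme and one of the most responsive ATF4 targets, had log2 fold changes of -0.19 and -0.10.

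In MyTrMaSt 4 of the 8 genes had an unadjusted p below 0.05 (23.7% of all tested genes did), all with higher values under CBE. In WT none did (24.7% of all tested genes), and no interaction was called. The 4 were Ddit4, an inhibitor of mTORC1, Ppp1r15a (GADD34), which returns eIF2alpha to its active state, and the serine synthesis enzymes Psat1 and Phgdh. Ddit4 was at 48.3, 58.1 and 55.3 CPM in MyTrMaSt + PBS and 76.8, 108, 92.0, 91.6 and 60.7 in MyTrMaSt + CBE, without overlap (log2 fold change 0.67, SE 0.23, edgeR adjusted p = 0.0836). In WT it was at 143, 72.9 and 70.9 and 95.4, 74.6 and 68.1, with the highest value in WT + PBS replicate 1 (log2 fold change -0.22, SE 0.25, edgeR adjusted p = 0.646). The interaction of Ddit4 was 0.89 (edgeR adjusted p = 0.319). Ppp1r15a had log2 fold changes of 0.71 in MyTrMaSt and 0.10 in WT, Phgdh of 0.57 and -0.054, and Psat1 of 0.40 and 0.41. In WT Phgdh was at 30.7, 12.4 and 11.4 CPM under PBS and 15.7 to 16.0 under CBE, with WT + PBS replicate 1 high. Psat1 was at 70.4, 146 and 123 under PBS and 139 to 163 under CBE in WT, with that library low.

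Ddit3 encodes CHOP, the transcription factor tied to death under prolonged stress. It was at 93.9, 46.4 and 41.3 CPM under PBS and 66.9, 60.1 and 78.9 under CBE in WT, and at 36.3, 38.8 and 31.7 under PBS and 56.9, 33.8, 55.9, 53.7 and 50.5 under CBE in MyTrMaSt. WT + PBS replicate 1 was above every other library, and the remaining WT + PBS libraries were below all of WT + CBE. The log2 fold change was 0.23 in WT (edgeR adjusted p = 0.642) and 0.65 without that library (edgeR adjusted p = 0.0333), against 0.49 in MyTrMaSt (edgeR adjusted p = 0.217). Exons of Ddit3 share 81 bases with genes on the opposite strand, Mars among them. Trib3, a pseudokinase induced by ATF4 and CHOP, had 1, 1 and 3 counts under PBS and 8, 13 and 5 under CBE in WT, and 3 to 5 counts in every MyTrMaSt library, so it did not pass the filter on low counts, but without a filter it was called higher in WT + CBE. Sesn2, a sestrin induced by ATF4, had 0, 16 and 5 counts under PBS and 4, 9 and 4 under CBE in WT.

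The number of calls in MyTrMaSt changed when WT + PBS replicate 1 was left out, for all genes as for the members. Without that library 18.9% of all tested genes were called in MyTrMaSt, against 7.75% with it, and 11 of the 37 members instead of 2: Edem1, Sdf2l1, Ddit3, Ddit4, Ppp1r15a, Psat1, Phgdh and Hspb1 rose and Hspa8, Hspa4 and Dnajb1 fell. A fit of the MyTrMaSt libraries alone called 7 (Edem1, Sdf2l1, Ddit4, Psat1 and Hspb1 higher, Hspa4 and Dnajb1 lower), with 15% of all genes, and limma with sample weights called 10, with 17.4% of all genes. Without WT + PBS replicate 1 the log2 fold change in MyTrMaSt was 0.67 for Ddit4 and 0.57 for Edem1, against 0.67 and 0.56 with it.

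Outside the members, the wider list of 34 other genes of the integrated stress response (29 tested) held larger changes. In WT 6 rose (6.7% of all tested genes were called higher) and none fell, and in MyTrMaSt 5 rose (5.32% of all tested genes) and none fell. Atf3, a stress-induced transcription factor, was at 0.902, 4.42 and 2.95 CPM under PBS and 34.6, 24.4 and 23.5 under CBE in WT (log2 fold change 3.08, SE 0.41, edgeR adjusted p = 3.85e-05), and at 2.42, 1.59 and 3.17 and 19.9, 7.89, 13.0, 22.2 and 17.6 in MyTrMaSt (log2 fold change 2.75, SE 0.40, edgeR adjusted p = 2.21e-04). Gdf15, a secreted stress hormone, had 0, 0 and 1 counts under PBS and 29, 24 and 18 under CBE in WT, a ratio of pooled counts per library size of 69.7 with a 95% exact counting interval of 12.1 to 2791. In MyTrMaSt it had 2, 4 and 1 counts under PBS and 3, 12, 7, 8 and 13 under CBE (log2 fold change 2.19, SE 0.54, edgeR adjusted p = 0.0164), and between the CBE groups it was lower in MyTrMaSt (log2 fold change -1.50, edgeR adjusted p = 0.0206). The interval covers counting error only. Eif4ebp1, an inhibitor of cap-dependent translation, rose in both genotypes (log2 fold changes 1.41 and 0.97). In MyTrMaSt the call of Eif4ebp1 was lost without any of 8 single libraries, among them each MyTrMaSt + PBS library, and that of Gdf15 without MyTrMaSt + PBS replicate 1 or 3 (edgeR adjusted p up to 0.186 and 0.0951). Between the CBE groups the call of Gdf15 was lost without WT + CBE replicate 2 or 3 or MyTrMaSt + CBE replicate 3 (edgeR adjusted p up to 0.119). With Xist as a covariate the call of Eif4ebp1 in WT was lost (edgeR adjusted p = 0.166). Atf3 kept its call in both genotypes under every alternative run.

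Nupr1 and Slc7a11 rose in WT, and Cebpb and Slc3a2 in MyTrMaSt. Nupr1, a stress-responsive chromatin protein, had log2 fold changes of 1.70 in WT and 0.85 in MyTrMaSt (edgeR adjusted p = 7.93e-04 and 0.0605) and was lower in MyTrMaSt + CBE than in WT + CBE (log2 fold change -1.07, SE 0.24, edgeR adjusted p = 0.0182). Slc7a11, the cystine carrier, had log2 fold changes of 1.73 and -0.64 with an interaction of -2.37 (edgeR adjusted p = 0.0609). Cebpb, a transcription factor that pairs with ATF4, rose by 1.12 in MyTrMaSt and had 0.73 in WT (edgeR adjusted p = 0.0198 and 0.151). Eif2ak2, the interferon-induced eIF2alpha kinase PKR, was the 1 gene of the wider lists whose response differed between the genotypes. It was at 3.61, 7.46 and 8.44 CPM under PBS and 42.5, 35.7 and 40.4 under CBE in WT, and at 5.87, 7.40 and 7.40 and 12.5, 6.76, 7.70, 6.40 and 10.2 in MyTrMaSt. The WT + CBE libraries were far above the other 11, with log2 fold changes of 2.49 and 0.34 and an interaction of -2.15 (edgeR adjusted p = 0.0111). Without MyTrMaSt + PBS replicate 2 or 3 this interaction, like the calls of Cebpb and Slc3a2, missed the threshold, and Slc7a11 did so in WT without WT + CBE replicate 3 or with Xist as a covariate (edgeR adjusted p = 0.207 with Xist). The interaction of Eif2ak2 also missed it with Xist (edgeR adjusted p = 0.283). The lower Nupr1 in MyTrMaSt + CBE was not called without WT + CBE replicate 2 or 3 or MyTrMaSt + CBE replicate 1 or 2 (edgeR adjusted p up to 0.142).

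In the heat shock arm the constitutive HSP70 and HSP110 genes fell in WT, and Hspa4 also in MyTrMaSt. Hspa4 (APG-2, a nucleotide exchange factor of the HSP110 family), at chr11:53259814-53300457 on the minus strand, was at 113, 111 and 130.4 CPM under PBS and 58.2, 45.5 and 57.2 under CBE in WT. The groups did not overlap, and the mean fell from 118 ± 10.6 to 53.7 ± 7.05 (SD, n = 3 each; log2 fold change -1.14, SE 0.22, edgeR adjusted p = 0.00166). In MyTrMaSt + PBS it was at 109, 133 and 192 and in MyTrMaSt + CBE at 75.6, 68.3, 74.6, 105 and 68.1, again without overlap (log2 fold change -0.89, SE 0.18, edgeR adjusted p = 0.00504). Without MyTrMaSt + PBS replicate 3, the highest control, the log2 fold change in MyTrMaSt was -0.63 and missed the threshold (edgeR adjusted p = 0.0646).

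Hsph1 (HSP110), at chr5:149614287-149636376 on the minus strand, was at 133, 159.7 and 166 CPM under PBS and 90.8, 65.7 and 69.3 under CBE in WT, where it fell (log2 fold change -1.02, SE 0.23, edgeR adjusted p = 0.00816). In MyTrMaSt it was at 169, 195 and 218 under PBS and 118, 122, 118, 222 and 114 under CBE. Replicate 4 of MyTrMaSt + CBE was above all 3 controls while the other 4 libraries were below them, and the test missed the threshold (log2 fold change -0.49, SE 0.20, edgeR adjusted p = 0.146). Without replicate 4 it was called (log2 fold change -0.72, edgeR adjusted p = 0.00507).

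Hspa8, the constitutive cytosolic HSP70 (HSC70), at chr9:40800984-40810087 on the plus strand, where 262 bases of its exons overlap 3 small nucleolar RNA genes, was at 4238, 2632 and 2481 CPM under PBS and 1965, 1920.0 and 1986 under CBE in WT. It fell by 0.67 on the log2 scale (SE 0.16, edgeR adjusted p = 0.0133). WT + PBS replicate 1 was the highest of all libraries, and without it the log2 fold change was -0.37 (edgeR adjusted p = 0.0194). In MyTrMaSt it was at 2800.3, 2496 and 2600.2 and 2224, 2010.3, 2219, 2423 and 2104, with the CBE libraries all below the controls (log2 fold change -0.26, SE 0.15, edgeR adjusted p = 0.293). With Xist as a covariate, the decreases in WT of Hspa4 (log2 fold change -0.92), Hsph1 (-0.55) and Hspa8 (-0.58) kept their sign but missed the threshold (edgeR adjusted p = 0.0912, 0.312 and 0.180), while Edem1 and Hspb1 stayed called. In MyTrMaSt the call of Hspa4 was kept with that covariate. In a fit of the WT libraries alone Hspa8 was not called (log2 fold change -0.66, edgeR adjusted p = 0.175). Leaving out WT + CBE replicate 2 also ended the calls of Hsph1 and Hspa8 (edgeR adjusted p = 0.0530 and 0.0586).

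**Figure D3:**
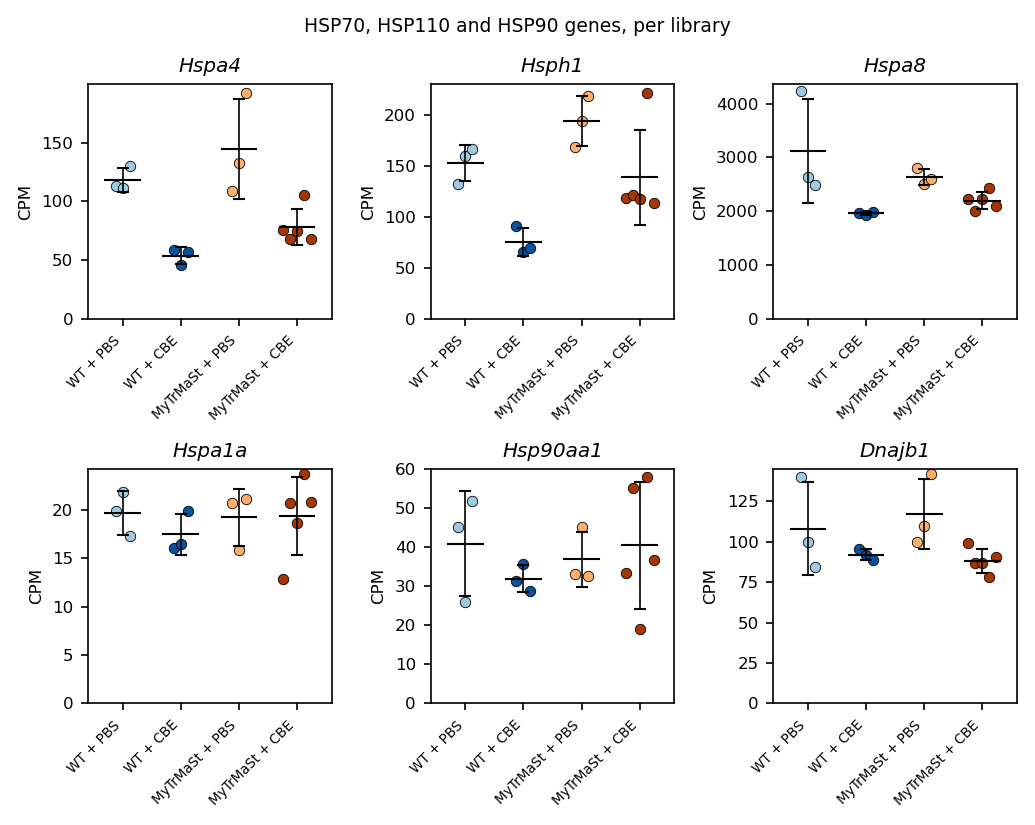
Normalised counts (CPM, y axis from 0) of 6 cytosolic chaperone genes in each library (points) of the 4 groups, with the mean and SD of each group (lines). Hspa4 and Hsph1 are lowest in WT + CBE, Hspa8 is lower under CBE, and Hspa1a and Hsp90aa1 overlap between all groups.

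Of the stress-inducible chaperone genes, Hspa1a, Hspa1b, Hsp90aa1 and Dnajb1 did not pass the test in either genotype. Hspa1a, the inducible HSP70, was at 19.9, 21.8 and 17.3 CPM under PBS and 16.0, 16.4 and 19.9 under CBE in WT (log2 fold change -0.20), and changed by 0.0076 in MyTrMaSt. Hspa1b had 18, 65 and 28 counts under PBS and 31, 14 and 19 under CBE in WT, with CBE values below the controls in CPM (log2 fold change -0.79, SE 0.35, edgeR adjusted p = 0.179) but 0.0097 in MyTrMaSt. Hsp90aa1, the inducible HSP90, had log2 fold changes of -0.33 and 0.12, with libraries of a single group as far apart as 19.0 to 58.1 CPM. Dnajb1, the HSP40 that works with HSP70, was at 99.8 to 142 CPM in MyTrMaSt + PBS and 78.3 to 99.0 in MyTrMaSt + CBE, below every control (log2 fold change -0.41, SE 0.16, edgeR adjusted p = 0.129), and in WT its log2 fold change was -0.21.

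Hspb1 (HSP25, the mouse HSP27) had the largest change of the 37 genes in both genotypes. This small heat shock protein holds unfolded proteins in a form that can be refolded and is found in reactive astrocytes. Its gene lies at chr5:135887919-135889563 on the plus strand. It was at 20.8, 15.5 and 10.5 CPM under PBS and 80.9, 96.7 and 119 under CBE in WT (6.56-fold, log2 fold change 2.71, SE 0.46, edgeR adjusted p = 6.11e-04). In MyTrMaSt it was at 8.98, 22.7 and 13.4 under PBS and 64.3, 92.4, 62.4, 230.4 and 109 under CBE (7.24-fold, log2 fold change 2.86, SE 0.42, edgeR adjusted p = 2.69e-04), with replicate 4 at the top. Without replicate 4 the log2 fold change in MyTrMaSt was 2.42. The difference between the genotypes was 0.14, with a 95% interval of -1.15 to 1.43, which is too wide to tell a like response from one that differs 2-fold.

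Cryab (alpha B-crystallin), the other small heat shock gene of the arm, did not follow Hspb1. It was at 352, 200.1 and 178 CPM under PBS, with replicate 1 high, and 234, 239 and 204 under CBE in WT (log2 fold change -0.092). The groups of MyTrMaSt also overlapped, at 204 to 229 and 201 to 242 CPM (log2 fold change 0.021). Exons of Cryab share 252 bases with Hspb2 on the opposite strand. In the wider list of 32 other heat shock genes (29 tested), 2 more small heat shock genes rose in both genotypes. Hspb6 (HSP20) was at 9.93 to 17.3 CPM under PBS and 60.5 to 76.5 under CBE in WT (log2 fold change 2.32, edgeR adjusted p = 6.24e-05), and rose by 1.88 in MyTrMaSt (edgeR adjusted p = 2.98e-04). Hspb8 (HSP22), which works with BAG3 in selective autophagy, was at 33.3 to 39.7 CPM under PBS and 85.6 to 112 under CBE in WT (log2 fold change 1.50, edgeR adjusted p = 1.07e-05), and rose by 1.07 in MyTrMaSt (edgeR adjusted p = 2.76e-04).

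**Figure D4:**
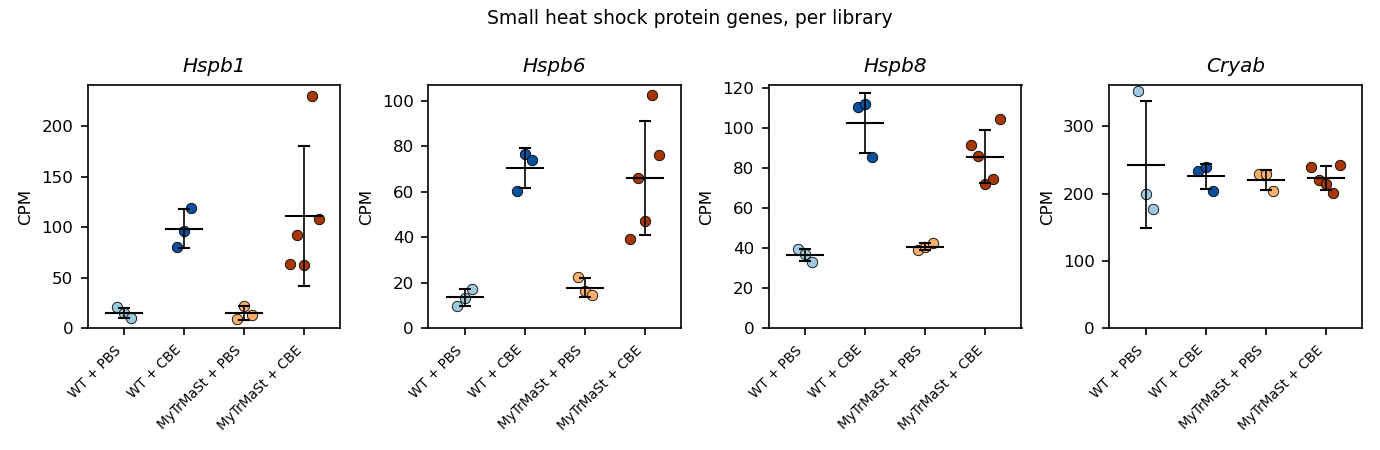
Normalised counts (CPM, y axis from 0) of 4 small heat shock protein genes in each library (points) of the 4 groups, with the mean and SD of each group (lines). Hspb1, Hspb6 and Hspb8 are higher in every CBE library than in every PBS library of both genotypes, and Cryab overlaps.

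The wider heat shock list also held 3 genes of 29 that fell in each genotype (3.89% of all tested genes fell in WT and 2.44% in MyTrMaSt), beside 2 that rose in each (6.7% and 5.32% of all tested genes). Hspa12a, a distant HSP70 of neurons, fell in both (log2 fold changes -0.56 and -0.50, edgeR adjusted p = 0.0303 and 0.0314). In WT the neuronal co-chaperone Dnajb2 (-1.16) and the HSP70 to HSP90 adaptor Stip1 (-0.55) fell as well. Dnajb2 was at 164 CPM in WT + PBS replicate 1 against 63.3 and 52.7 in the others, and without that library its log2 fold change was -0.53 and not called. In MyTrMaSt the HSP90 partner Chordc1 (-1.56) and Hspa4l (-0.65), an HSP110 paralog of Hspa4, fell. The calls of these decreases also depended on single libraries, while no fold change reversed. Leaving out 1 library ended the call of Hspa12a in 5 of 14 cases in each genotype. It ended that of Stip1 in 6, of Dnajb2 in 7, of Hspa4l in 3 and of Chordc1 in 1 (MyTrMaSt + PBS replicate 3). In those cases the log2 fold change of Hspa12a was -0.51 to -0.60 in WT and -0.43 to -0.56 in MyTrMaSt. That of Stip1 was -0.38 to -0.60 and that of Hspa4l -0.57 to -0.67. With Xist as a covariate Dnajb2 (log2 fold change -1.36) and Stip1 (-0.52) in WT kept their sign but missed the threshold. So did Hspa12a (-0.43) and Hspa4l (-0.60) in MyTrMaSt. The medians of the 29 tested genes were -0.23 in WT and -0.18 in MyTrMaSt.

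The genotypes were compared under each treatment. Between the CBE groups 1 of the 37 genes was called (2.54% of all tested genes were), and 3 had an unadjusted p below 0.05 (8.06% of all tested genes). Hsph1 was higher in MyTrMaSt + CBE than in WT + CBE (log2 fold change 0.87, SE 0.21, edgeR adjusted p = 0.0328), with all 5 libraries above the 3 of WT. Under PBS its MyTrMaSt libraries were also all above those of WT (log2 fold change 0.34, edgeR adjusted p = 0.443). Groups did not overlap for 9.96% of all tested genes under CBE and 20.2% under PBS. The call between the CBE groups was lost without WT + CBE replicate 2 or 3 or MyTrMaSt + PBS replicate 2. There the log2 fold change was 0.78 to 0.87 (edgeR adjusted p up to 0.235). It was also lost with the replicate block (0.65, edgeR adjusted p = 0.118) and with at least 10 counts in every library (0.84, edgeR adjusted p = 0.0932). Without MyTrMaSt + CBE replicate 4 the call held at a log2 fold change of 0.64 (edgeR adjusted p = 0.0272). Between the PBS groups none was called (0.186% of all tested genes were), with 5 at an unadjusted p below 0.05 (16.8% of all tested genes), Dnajb9 higher and Herpud1, Sdf2l1, Ddit3 and Ddit4 lower in MyTrMaSt, and DESeq2 called Dnajb9 while limma called none. Nor was the interaction called for any member (0.489% of all tested genes were), with 3 at an unadjusted p below 0.05 (12.5% of all tested genes), Dnajb9, Sdf2l1 and Ddit4, and 0 by DESeq2 and by limma. These 3 are genes that also had an unadjusted p below 0.05 between the PBS groups, and the same PBS libraries enter the responses to CBE and the comparison of the genotypes. For Hspa4, Hsph1 and Hspa8 the response in MyTrMaSt minus that in WT was 0.25, 0.53 and 0.41 on the log2 scale, with edgeR adjusted p = 0.727, 0.479 and 0.452.

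Single libraries also differed within groups. In MyTrMaSt + CBE replicate 4 the median difference of the ER genes from the WT + PBS mean was 0.42 on the log2 scale, against -0.058 to 0.045 in the other 4 libraries of that group. For the heat shock genes it was 0.27 against -0.37 to -0.16, and for the ATF4 genes 0.11 against -0.067 to 0.10. Hspa5, Calr, Dnajb11, Hsph1 and Hspb1 were higher in this library than in any other of its group. This library also stood apart over all genes, as given above. In WT + PBS replicate 1 Hspa5, Atf6, Eif2ak3, Asns and Psat1 were low while Ddit3, Ddit4, Phgdh, Hspa8 and Cryab were high.

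**Figure D5:**
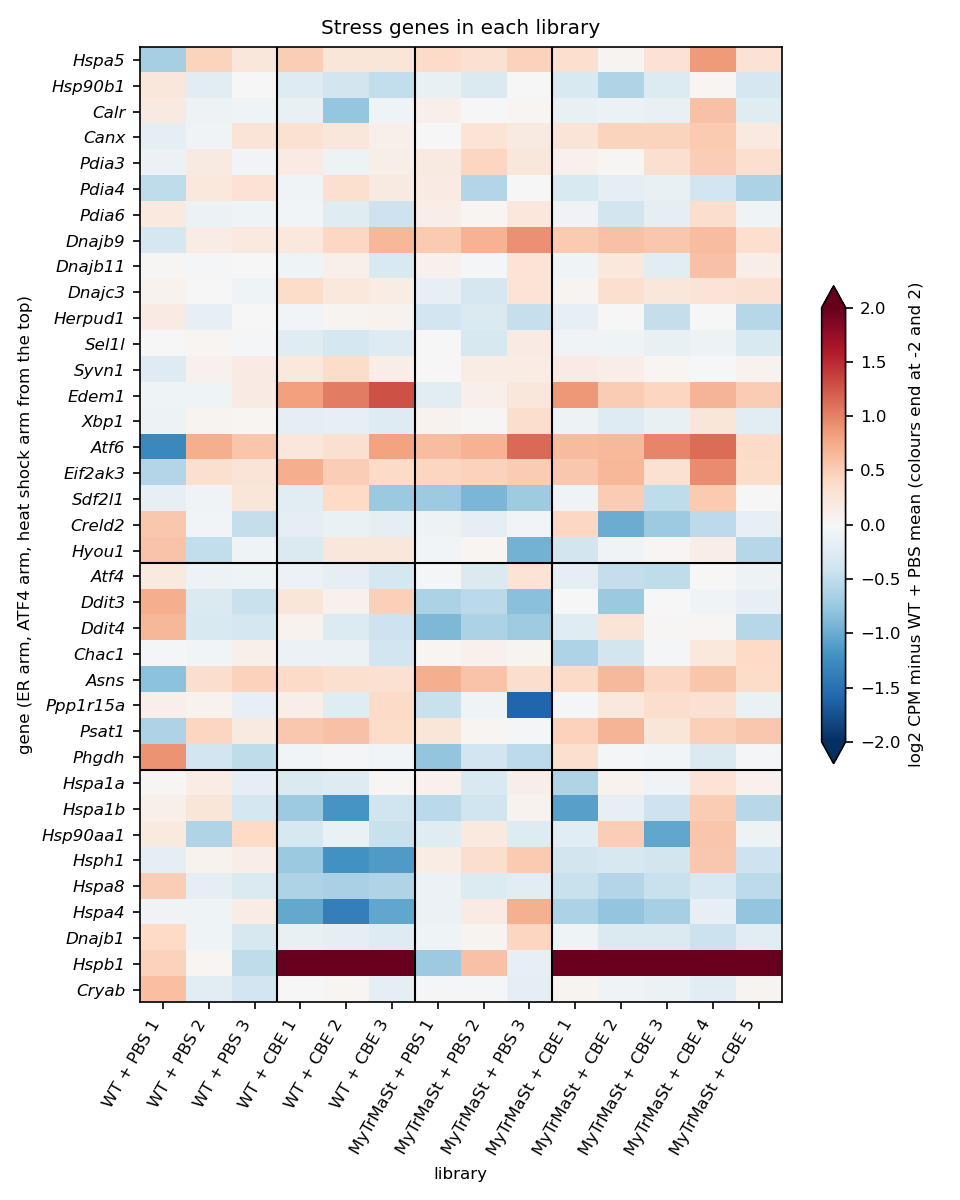
Difference of log2 CPM from the WT + PBS mean (colour, red higher and blue lower, ending at -2 and 2) for the 37 tested genes (rows, in 3 arms) in each of the 14 libraries (columns, by group). Hspb1 is red in all 8 CBE libraries, Hspa4 and Hsph1 are blue in WT + CBE, and MyTrMaSt + CBE replicate 4 and WT + PBS replicate 1 differ from the rest of their groups.

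Cell type markers moved with treatment beside these genes. Of 9 microglia markers 7 rose in each genotype, with a summed level of 429.9 to 563 CPM under PBS and 2053 to 2448 under CBE in WT, and 390.3 to 408 and 1174 to 1380.2 in MyTrMaSt. Of 8 astrocyte markers 3 rose in each genotype and 1 fell in WT. Their sum, like that of the microglia markers, was higher in every CBE library. It was at 2945 to 3517 and 4049 to 4443 in WT and 3437 to 3859 and 4480.2 to 4853 in MyTrMaSt. Of 9 neuron markers 2 fell in WT and 1 in MyTrMaSt. Their sum was lower under CBE, at 4489 to 5391 and 3974 to 4326 in WT. In MyTrMaSt it was at 5396 to 6322 and 4433 to 5220.2. Of 9 oligodendrocyte markers 6 fell in WT and none in MyTrMaSt (sums of 17733 to 21286 and 10803 to 14002 in WT, 17604 to 20989.7 and 13386 to 17714 in MyTrMaSt). Of 5 tested endothelial markers none was called in WT and 1 fell in MyTrMaSt, with sums between 105 and 220.2 CPM. Genes of neuronal activity and tissue handling, 8 in number, had 3 that fell in WT and 2 in MyTrMaSt. The part of these shifts in the changes of the stress genes was not tested.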

How the data were processed

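Bulk MARSseq libraries of 14 mouse brains were made and sequenced by the authors, who mapped the reads to mm10 with hisat and kept those with a unique position. The submitters' processing notes also name cutadapt and HTSeq. The values used are the deposited counts, whole reads per gene that the authors did not normalise. Whether counting used strand or molecular identifiers is not given in the sources used here. A normalised table and a table of the authors' own fold changes and p-values for CBE over PBS in each genotype were not used.

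edgeR 4.0.16 under R 4.3.3 was used for testing. After filterByExpr (11852 genes kept) and TMM scaling, all 14 libraries entered 1 quasi-likelihood fit in which the 4 groups were the only terms. P values were adjusted by Benjamini-Hochberg over all tested genes. Library totals of 1290616 to 3704691 limit the precision of low genes, and p-values measure the spread between libraries of single mice. CPM values use TMM library sizes. The procedure was also run on simulated counts in which a small set of genes was changed, in WT + CBE only. No outlying library was simulated, so this run does not cover a library such as WT + PBS replicate 1. The alternatives were RLE factors or library totals, DESeq2 1.42.0, limma 3.58.1 voom with sample weights, other filters and thresholds, only the groups compared, a replicate block, Xist as a covariate and leaving out each library. The members and gene lists were chosen with earlier results of these data known. Named were all members and, of the other pathway genes, those called under CBE, at most the 3 largest changes per list and comparison, the cell type markers as lists, Xist and the deleted genes. Slc7a11, Eif4ebp1, Slc3a2, Hspa12a, Stip1 and Hspa4l fall outside this rule and were chosen after their values were seen. The table has 22 genes whose names were turned into dates, which were kept as listed. Gene positions are from GENCODE vM21 (GRCm38).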

Additional observations from a re-analysis of the deposited data

Results flagged for a closer look

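In the group of 5 MyTrMaSt + CBE libraries, 6 of the 37 tested genes had a library far from the others by Dixon's 95% criterion. Independent groups with normal spread meet it in about 1 in 20 cases. The share of all tested genes that meet it was not computed, so the count is not read as particular to these genes. Of the 6, 5 concerned replicate 4, which also stood apart over all genes. In that library Calr was at 1428 CPM, with the next highest library at 879.5. Xbp1 was at 264 CPM, with the next at 208. Hsph1 was at 222 CPM against 122, Hspa4 at 105 against 75.6, and Hspb1 at 230.4 against 109. For Ddit3 it was replicate 2 that stood apart, at 33.8 CPM with the next lowest at 50.5. The responses of the 2 genotypes differed for Eif2ak2 by a genotype by treatment interaction of -2.15 on the log2 scale (edgeR adjusted p = 0.0111), which kept its sign under all 22 alternatives and lost the call under 4 of them: the Xist covariate, the replicate block, and leaving out MyTrMaSt + PBS replicate 2 or 3.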

How the results depend on the processing

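Of 37 gene results called among the members and wider lists, none reversed under up to 24 alternatives each, and 747 of 877 repeats kept the call. Called members in WT numbered 2 in place of 5 with the Xist covariate (5.45% of all genes called in place of 10.6%), and 3 to 6 when single libraries were left out, the lowest without WT + CBE replicate 2 (6.3% of all genes). In MyTrMaSt 2 members were called, against 7 with only the groups compared, 10 with limma, 1 with a 2-fold threshold, 12 without both WT + PBS replicate 1 and MyTrMaSt + CBE replicate 4 (chosen after seeing the data; 18.5% of all genes in place of 7.75%), and 1 (without MyTrMaSt + PBS replicate 3) to 11 (without WT + PBS replicate 1) when single libraries were left out. Over all genes, 919 were called in MyTrMaSt, from 377 to 2245 over the alternatives (lowest with the replicate block, highest without WT + PBS replicate 1, 1772 with only the groups compared), and 1255 in WT, from 506 to 1998 (lowest with only the groups compared, where 4 members were called, highest with limma). Between the CBE groups the 1 call (Hsph1) was lost (0) with at least 10 counts in every library, with a 2-fold threshold, with the replicate block, and among single libraries left out (0 to 1: WT + CBE replicate 2 or 3, or MyTrMaSt + PBS replicate 2). DESeq2 called 1 member between the PBS groups in place of 0, and leaving out libraries none (0 to 0), as for the interaction (0 to 0). The ER median in WT, 0.035, was 0.096 with library totals, 0.11 with at least 10 counts in every library, 0.25 with the Xist covariate and 0.0088 to 0.11 without single libraries. In MyTrMaSt it ran from -0.10 to 0.026 without single libraries. The ATF4 medians ran from -0.081 to 0.16 in WT and from 0.37 to 0.48 in MyTrMaSt. The heat shock median in WT ran from -0.60 to -0.23 without single libraries. In MyTrMaSt, 0.0076, it was -0.15 with limma, -0.23 with the replicate block, -0.23 without both libraries named above, and -0.24 to 0.019 without single libraries, -0.24 being the value without MyTrMaSt + CBE replicate 4. Of the members not called, 19 of 32 in WT and 14 of 35 in MyTrMaSt changed sign under some alternative. The labels name no litter or batch, and deviations of libraries with the same number correlated from -0.11 to 0.014, so the replicate number was not taken to pair the mice. The replicate block called 5 members in WT and 3 in MyTrMaSt, with replicates 4 and 5 of MyTrMaSt + CBE absorbed by their own terms. The causes of these shifts were not tested, except that fewer libraries or genes enter some fits by construction.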
